A study of Homo sapiens with 4 samples.

Results

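The MITF and pigmentation genes are 10 genes of the melanocyte programme: MITF, MLANA, PMEL, TYR, TYRP1, DCT, RAB27A, OCA2, SLC45A2 and TRPM1. Their chromatin was described here through every region that the authors' deposited table assigns to 1 of them, which gave 69 regions of 91107 in all. Each of the 10 genes had at least 1 region, among 17301 genes named in the authors' deposited table. The mark was H3K27ac, an acetylated form of histone H3 found at active promoters and enhancers, measured by ChIP-seq (sequencing of immunoprecipitated chromatin) in A375, a human melanoma line long established in culture. The labels give 2 libraries from cells treated with 1 mM octanoate, a fatty acid of medium chain length, and 2 libraries from cells given its vehicle, isopropanol, all after 48 hours. No genetic change between the groups is labelled, and the labels do not say whether the 2 libraries of a group came from separate cultures, so p-values may rest on technical spread alone.

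MITF is the transcription factor that directs melanocyte identity, and most of the other genes are known to be switched on by it. TYR, TYRP1 and DCT encode the enzymes that make melanin, and PMEL and MLANA encode proteins of the melanosome, the organelle in which melanin is laid down. OCA2 and SLC45A2 are melanosome membrane transporters, RAB27A is the small GTPase that ties melanosomes to their motor, and TRPM1 is an ion channel gene whose transcript also carries a microRNA. Melanoma lines differ widely in how much of this programme they keep.

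The values are those of 1 comparison, octanoate with vehicle. For each region the authors' deposited table gives a mean level over libraries in the authors' normalized units, a log2 fold change with its standard error (SE), a p-value and, above a certain level, a p-value adjusted for multiple testing. It holds no value for a single library, so no spread between replicates and no depth per library can be given, and each SE is the one the authors' model assigned. The column names do not say which treatment is the numerator, so a fold change is called positive or negative and not a gain or loss. In bulk chromatin, fewer cells carrying a mark and less mark per cell cannot be told apart. Coordinates are those of the table, on the build hg38 named in the submitters' processing notes.

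The labelled cell type was checked against marker genes. Regions at the start of SOX10, PAX3 and S100B, genes of the neural crest and melanocyte lineage, had mean levels of 774, 93.3 and 55.2 in the authors' deposited table. These were at percentiles 99.7, 56.7 and 28.8 of all regions at a start. Of 8 lineage markers, 5 had a region at the start in the authors' deposited table, and the 3 without one were MLANA, TYR and DCT. The PMEL start region is also assigned to CDK2 and RAB5B, and that of SOX10 also to POLR2F. Mark of PMEL or SOX10 cannot be told apart from mark of those genes. All 5 markers of the dedifferentiated melanoma state had a start region in the authors' deposited table, from 39.4 for SOX9 (percentile 18.2) to 516 for AXL (percentile 99.2). That of EGFR, at 50.5, was at percentile 25.5. The authors' deposited table gave no start region to any of 3 leukocyte and 2 endothelial markers. Away from a start, however, summed levels were 862 for PTPRC, 699 for CDH5 and 436 for PECAM1 in the authors' deposited table, above the 269 of PMEL, 65.6 of MLANA and 41.8 of TYR. The part of other cell types in the results was not tested. A start region was listed for 1 of 4 epithelial markers (EPCAM, 50.5, percentile 25.4) and for 1 of 2 liver markers (APOA1, 9.80, percentile 2.30). A start region was thus present for markers of other cell types too, at a level like that of EGFR for EPCAM.

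Of the 10 genes, only MITF and PMEL had a region at a distance of 0, that is, one overlapping the gene start used in the authors' deposited table. Such a region was present for 70.2% of all genes in the authors' deposited table. The other 8 genes carried regions only away from that start. The 67 regions away from a start had a median mean level of 9.99 in the authors' deposited table, beside 9.94 for all 80465 such regions. MITF stood at the upper end of the table for its summed level. Its 27 regions added up to 1299 in the authors' deposited table, at percentile 98.9 of all genes, where the median gene had 3 regions adding up to 123. At the other end, the summed level was 9.71 for DCT and 5.49 for SLC45A2 in the authors' deposited table, at percentiles 4.96 and 2.43.

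**Figure D1:**
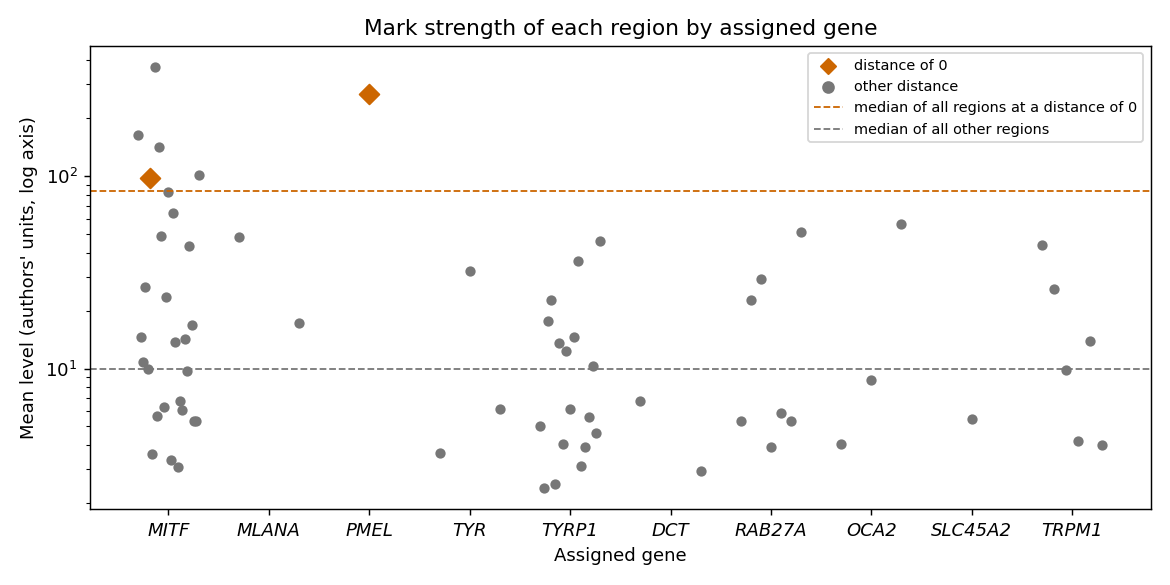
Mean level of each of the 69 regions (log axis, authors' normalized units) by assigned gene. Diamonds are the regions at a distance of 0, of MITF (98.4) and PMEL (269), and dashed lines are the medians of all regions at a distance of 0 (83.7) and of all others (9.94).

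MITF is transcribed from several alternative starts, which give isoforms with different first exons, and RefSeq (GRCh38.p14) lists promoter windows for 3 of them. All 3 starts lay inside a region of the authors' deposited table. The 250 bases before each are shown because regions assigned to MITF cover all 3 starts. Capitals mark TGACGTCA, the full cyclic AMP response element.
MITF, the first start, chr3:69739214-69739463, plus strand: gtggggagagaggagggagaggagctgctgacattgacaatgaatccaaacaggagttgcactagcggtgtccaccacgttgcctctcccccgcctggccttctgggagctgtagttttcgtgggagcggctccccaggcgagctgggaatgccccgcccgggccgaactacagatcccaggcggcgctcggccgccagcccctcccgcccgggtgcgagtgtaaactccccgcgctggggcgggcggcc
MITF, the second start, chr3:69763561-69763810, plus strand: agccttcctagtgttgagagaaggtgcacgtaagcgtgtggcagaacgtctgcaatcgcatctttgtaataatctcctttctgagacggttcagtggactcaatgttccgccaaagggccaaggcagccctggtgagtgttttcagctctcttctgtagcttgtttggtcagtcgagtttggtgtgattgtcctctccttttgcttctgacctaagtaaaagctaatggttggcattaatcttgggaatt
MITF, the third start, chr3:69936342-69936591, plus strand: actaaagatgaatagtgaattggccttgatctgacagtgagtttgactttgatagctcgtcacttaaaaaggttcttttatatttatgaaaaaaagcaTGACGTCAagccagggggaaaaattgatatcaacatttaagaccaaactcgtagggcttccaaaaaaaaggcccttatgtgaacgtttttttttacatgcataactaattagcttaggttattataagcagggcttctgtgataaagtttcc
The third window held TGACGTCA, starting 152 bases before the start, and the others did not. These letters, searched on both strands and identical on both, occurred in 1.85% of 35116 RefSeq windows of 300 bases. As background, the promoter of the melanocyte isoform MITF-M is known for such an element, through which cyclic AMP and CREB act. G and C made up 68.0% of the first sequence, 46.8% of the second and 34.8% of the third.

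Mark strength differed between the 3 MITF starts. The region over the first start (chr3:69738116-69742104) had a mean level of 98.4 in the authors' deposited table, or 24.7 per kb of its width, at percentile 59.9 of all regions at a start. That over the second start (chr3:69761348-69779640) was 18292 bases wide and had a mean level of 370 in the authors' deposited table, or 20.2 per kb. Its width and its level were at percentiles 99.9 and 99.8 of regions not at a start in the authors' deposited table. The region over the third start (chr3:69936094-69938766) had a mean level of 43.1 in the authors' deposited table, or 16.1 per kb. Per kb, then, the order in this table ran from the first start to the third, and whether neighbours differ cannot be tested without values per library.

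Fold changes over the 3 MITF starts did not pass the test. They were 0.26 ± 0.27 (SE) at the first, -0.02 ± 0.20 at the second and 0.30 ± 0.30 at the third in the authors' deposited table. Their adjusted p-values in the authors' deposited table, from DESeq2 per its column names, were 0.554, 0.944 and 0.531. The 95% interval of the second, -0.41 to 0.37 from the SE of the authors' deposited table, holds both 0 and the median of 0.32 of all 36436 regions with an adjusted p-value.

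A total of 21 MITF regions lay within the gene as RefSeq gives it and 6 outside it. Upstream, the strongest region (chr3:69646630-69653245) lay 86190 bases before the start and had a mean level of 163 and a log2 fold change of 0.30 ± 0.23 in the authors' deposited table. Downstream, a region 257863 bases past the start (chr3:69997297-70001705) overlapped SAMMSON, a long noncoding RNA gene next to MITF known from melanoma. It had a mean level of 102 and a log2 fold change of 0.39 ± 0.24 in the authors' deposited table. That table names protein-coding genes for its regions, so the region counts here as one of MITF.

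Among MITF regions with an adjusted p-value, those from the second start to before the third had lower fold changes than the rest. These 6 regions lay from 21914 to 97102 bases past the first start. The first of them is the region over the second start, and the others lay between the second and the third. They had log2 fold changes between -0.29 and 0.07 in the authors' deposited table, 5 of them negative. The 5 other MITF regions with an adjusted p-value lay between 0.26 and 0.39 in the authors' deposited table, so that these sets did not overlap. The 16 MITF regions without an adjusted p-value did not divide in this way. Between the second and the third start, 9 of them ran from -1.15 to 0.52 with 5 positive, and the other 7 ran from -0.75 to 0.69 with 4 positive, per the authors' deposited table. The lowest of these 7, upstream of the gene (chr3:69675403-69676016), had -0.75 ± 0.52 at a mean level of 10.8 in the authors' deposited table. The division was chosen after the values were seen and has no test. The most negative of the 6 (chr3:69818986-69823844) had -0.29 ± 0.23 at a mean level of 82.5 in the authors' deposited table. Next to the widest region, chr3:69782535-69788703 had -0.22 ± 0.23 at a mean level of 141 in the authors' deposited table. None of the 6 passed the test, with adjusted p-values from 0.457 to 0.982 in the authors' deposited table.

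Negative values made up a smaller share of the whole table. Per the authors' deposited table, 12.7% of its regions that carry an adjusted p-value were negative, 4632 of 36436. This share includes regions at a distance of 0, whereas the 6 MITF regions described all lie at other distances. Among regions at other distances, 4441 of 26440 were negative and 83.2% positive. Of all 23 member regions with an adjusted p-value, 7 were negative (30.4%). For the 11 of MITF it was 5 (45.5%), all among the 6 described, which were picked by their values. Of 7591 regions with a mean level of at least 100, at any distance, 4.69% were negative in the authors' deposited table. Among the 5 member regions that strong, only that of PMEL lay at a distance of 0. Of these 5, 2 were negative in the authors' deposited table, both of them among the 6 described. The other 4 of the 6 had mean levels from 23.6 to 82.5. These counts describe the table and carry no error between libraries.

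**Figure D2:**
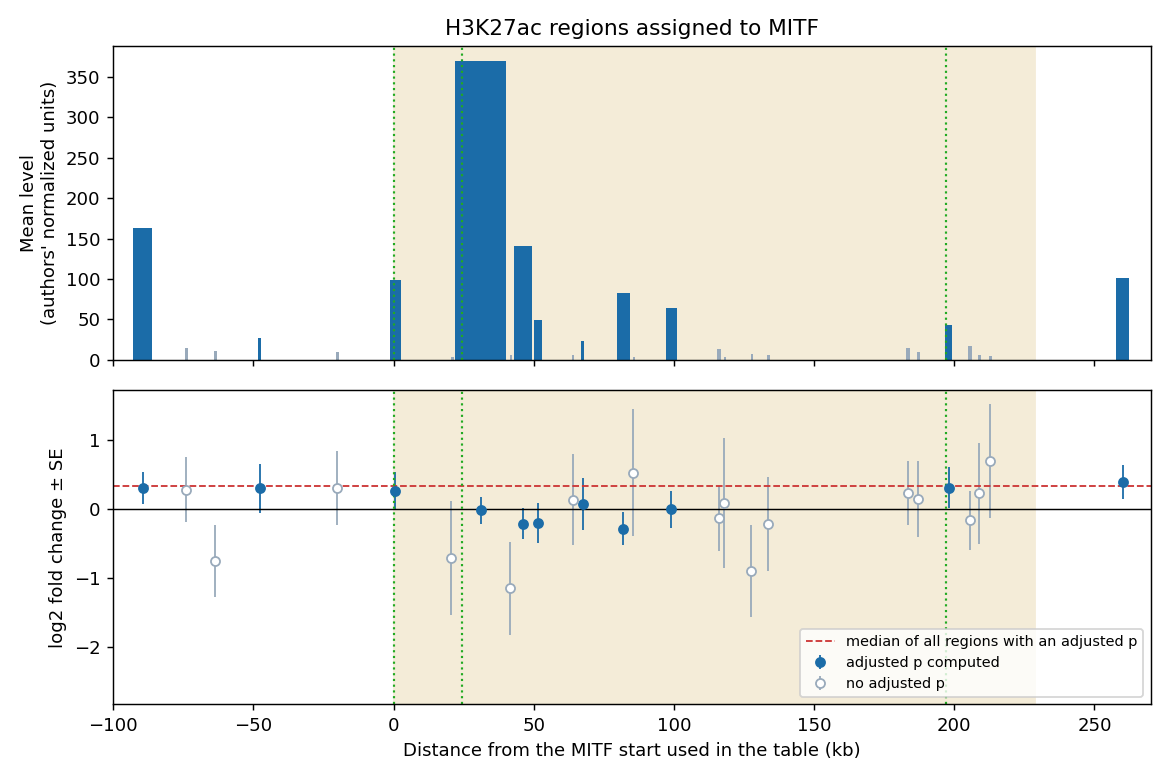
Mean level (upper panel, authors' normalized units, bars as wide as the regions) and log2 fold change with its SE (lower panel) of the 27 MITF regions by distance in kb from the start used in the table. Shading is the gene, dotted lines are the 3 RefSeq starts, and the 6 filled points between the second and the third lie from -0.29 to 0.07. Of the 11 filled points, 10 lie below the dashed table median of 0.32.

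PMEL, which forms the fibrils on which melanin is deposited, had 1 region, over its start (chr12:55965998-55975664). It was 9666 bases wide and had a mean level of 269 in the authors' deposited table, at percentile 95.2 of regions at a start, or 27.9 per kb, at percentile 62.2. The authors' deposited table lists the same region 3 times, at a distance of 0 from CDK2, from PMEL and from RAB5B. Mark belonging to PMEL and mark belonging to its neighbours therefore cannot be told apart. Its log2 fold change was 0.52 ± 0.21 (SE) in the authors' deposited table, with an unadjusted p-value of 0.0122, the lowest of the 69. The adjusted p-value was 0.167 in the authors' deposited table, also the lowest of the members, and did not pass 0.05.

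MLANA, a melanosome protein and melanoma antigen, had 2 regions and none at its start. The stronger (chr9:5878901-5880713) lay 10089 bases before the start and had a mean level of 48.5 and a log2 fold change of 0.47 ± 0.29 in the authors' deposited table. The weaker (chr9:5909675-5910809), at the far end of the gene, had a mean level of 17.1 and 0.33 ± 0.44 in the authors' deposited table. Both overlapped BRD10, a neighbouring gene in RefSeq.

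The promoters of the 3 melanin enzymes were outside every region of the authors' deposited table. RefSeq windows existed for 8 of the 10 genes, 16 in number, and starts of 4 windows lay in a region: the 3 of MITF and 1 of RAB27A. Among windows of all protein-coding genes, the start lay in a region of the authors' deposited table in 63.8% of 22199. MITF is known to bind the M-box, whose core is TCATGTG, and the letters around it are shown for the enzyme promoters, which hold it though no region covers them. Capitals mark TCATGTG or its reverse complement.
TYRP1, chr9:12693213-12693273, plus strand: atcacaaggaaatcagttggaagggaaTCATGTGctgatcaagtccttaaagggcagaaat
TYR, chr11:89177743-89177803, plus strand: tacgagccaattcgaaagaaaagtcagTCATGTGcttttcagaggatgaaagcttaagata
DCT, chr13:94479784-94479844, minus strand: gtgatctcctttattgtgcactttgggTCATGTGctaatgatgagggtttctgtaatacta
DCT, chr13:94479864-94479924, minus strand: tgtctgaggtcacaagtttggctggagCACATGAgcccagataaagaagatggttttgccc
The motif began 105 bases before the TYR start, 145 before the TYRP1 start and 135 and 215 before the DCT start at 94479682. TCATGTG on either strand occurred in 3 of the 16 windows of these genes and in 2.92% of all 35116 RefSeq windows of 300 bases. CATGTG, which TCATGTG contains, occurred in 6 of the 16 and in 11.1% of all. CACGTG, the E-box, occurred in 0 of the 16 and in 7.26% of all. Such matches are letters and not measured sites.

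TYR, the rate-limiting enzyme of melanin synthesis, had 3 regions, all outside the gene. The strongest (chr11:89167097-89169540) ended 8335 bases before the RefSeq start, at a mean level of 32.0 and with a log2 fold change of 0.29 ± 0.32 in the authors' deposited table. Mean levels of the other 2 were 3.62 and 6.19 in the authors' deposited table, with 0.96 ± 0.84 and 0.27 ± 0.64, too low for an adjusted p-value.

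TYRP1, which acts later in the same pathway, had 17 regions, of which 6 lay in the gene. Their mean levels ran from 2.39 to 45.8 in the authors' deposited table, with 9 positive and 8 negative fold changes. The region nearest its RefSeq start was 4189 bases away in the authors' deposited table. In the last part of the gene, chr9:12707424-12709976 had a mean level of 36.3 and 0.56 ± 0.29 in the authors' deposited table. The strongest region (chr9:12721313-12724620), past the gene's end, had a mean level of 45.8 and 0.37 ± 0.28 in the authors' deposited table. Upstream, chr9:12680564-12682442 had the most negative fold change of any member region with an adjusted p-value, -0.63 ± 0.36 at a mean level of 22.7 in the authors' deposited table. Its adjusted p-value was 0.320 in the authors' deposited table. A group of 3 regions lay far upstream, the strongest of them (chr9:12333931-12334766) 358669 bases away, with 0.88 ± 0.43 (unadjusted p-value 0.0395) per the authors' deposited table. Of the 17 regions, 11 overlapped LURAP1L-AS1, a noncoding gene that covers the same stretch in RefSeq.

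**Figure D3:**
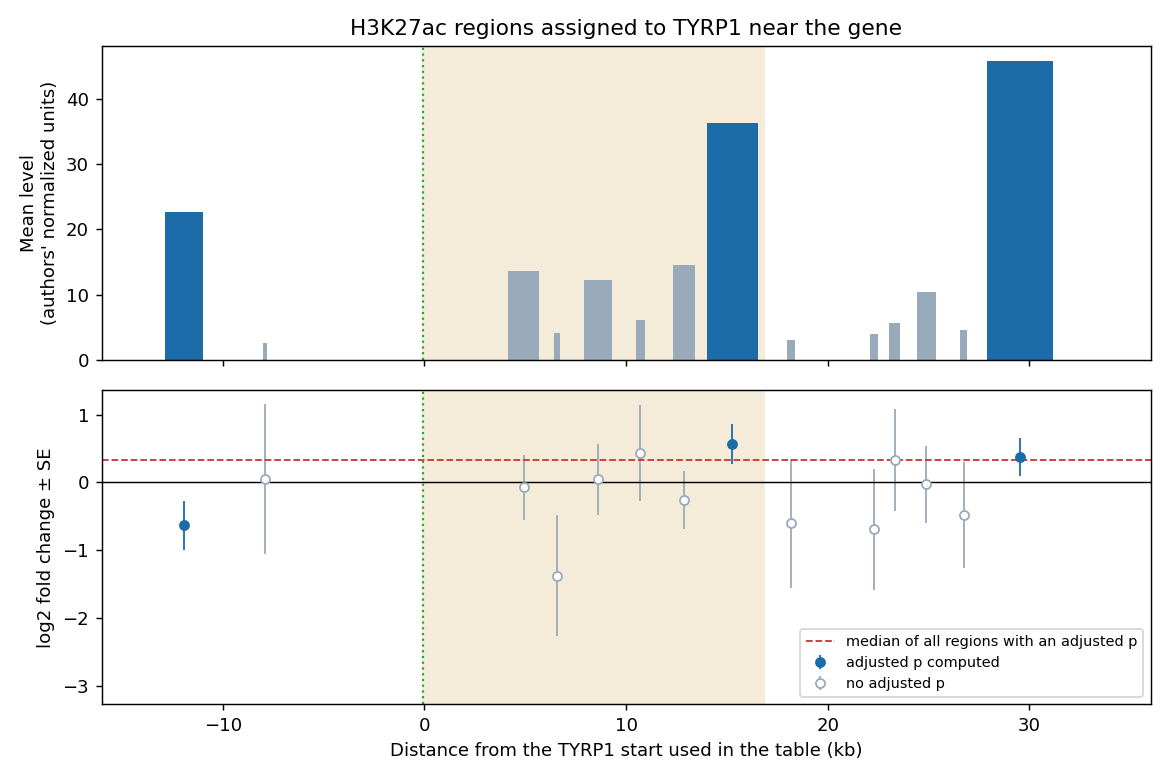
Mean level (upper panel, authors' normalized units) and log2 fold change with its SE (lower panel) of the TYRP1 regions near the gene by distance in kb from the start used in the table. Shading is the gene and the dotted line its RefSeq start, which no region covers, and the filled point upstream is the region at -0.63.

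DCT, the other enzyme of the pathway, had less summed mark than TYR or TYRP1. Its 2 regions had mean levels of 6.79 and 2.92 in the authors' deposited table, and the nearer lay 43221 bases from the start in use there. Their log2 fold changes were 1.13 ± 0.63 and 0.24 ± 1.00 in the authors' deposited table, without an adjusted p-value.

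RAB27A showed how the choice of start bears on the assignment. The authors' deposited table measures its distances from 55270910, 12 bases from the second of 5 RefSeq starts, and lists no region there. The outermost RefSeq start (55319123) lay in chr15:55316833-55320954, which the authors' deposited table assigns to PIGB and PIGBOS1. That region had a mean level of 117 and a log2 fold change of 0.13 ± 0.23 in the authors' deposited table and is not among the 69. All 7 regions assigned to RAB27A lay in the gene. The strongest (chr15:55289124-55290953) had a mean level of 51.0 and 0.68 ± 0.31 in the authors' deposited table, with p-values of 0.0278 unadjusted and 0.221 adjusted. At 27.9 per kb it was at percentile 96.9 of regions not at a start in the authors' deposited table. Nearer the start, chr15:55266968-55268141 had a mean level of 29.3 and 0.47 ± 0.36, and chr15:55252932-55254204 had 22.9 and 0.11 ± 0.38 in the authors' deposited table. The other 4 were at 5.88 or below in the authors' deposited table, 1 positive and 3 negative.

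Among the transporters, OCA2, which governs melanosome pH, had 3 regions, all within the gene and far from its start. The strongest (chr15:27843080-27846006), 253307 bases from the start, had a mean level of 56.2 and 0.40 ± 0.28 in the authors' deposited table. The other OCA2 regions had 4.03 and 8.76 in the authors' deposited table, with 0.44 ± 0.78 and 0.13 ± 0.55. SLC45A2 had 1 region, within the gene (chr5:33969687-33969988), at a mean level of 5.49 and 0.70 ± 0.75 in the authors' deposited table.

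TRPM1 had 6 regions, all in the gene, 3 positive and 3 negative in the authors' deposited table. Its strongest (chr15:31022558-31025636) had a mean level of 43.9 and -0.22 ± 0.29 in the authors' deposited table. A positive fold change of 0.77 ± 0.37 was listed for chr15:31080354-31081627 in the authors' deposited table, with p-values of 0.0342 unadjusted and 0.238 adjusted. Another of 1.01 ± 0.47 was listed for chr15:31135703-31136746 in the authors' deposited table, with an unadjusted p-value of 0.0309 at a mean level of 14.0. The remaining 3 had mean levels from 4.01 to 9.82 in the authors' deposited table.

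Taking the genes as a whole, 0 of the 23 member regions with an adjusted p-value passed 0.05 by DESeq2 in the authors' deposited table, where 1.67% of all such regions passed. At an unadjusted p-value under 0.05 there were 5 of 69 in the authors' deposited table, beside 8.99% of all regions. These 5 were the regions of PMEL and RAB27A, 2 of TRPM1 and the far upstream one of TYRP1, all positive in the authors' deposited table, where 8.68% of all regions met this rule with a positive sign. MITF had 0 of 27 in the authors' deposited table. The largest statistic among members, 2.51 in the authors' deposited table, was below 3.34, the smallest among the regions that passed. At a statistic of 3.34, the smallest SE among the 23 regions would need a log2 fold change of 0.67 and their median SE one of 0.97, so smaller changes were not detectable there. The other 46 regions had no adjusted p-value.

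**Figure D4:**
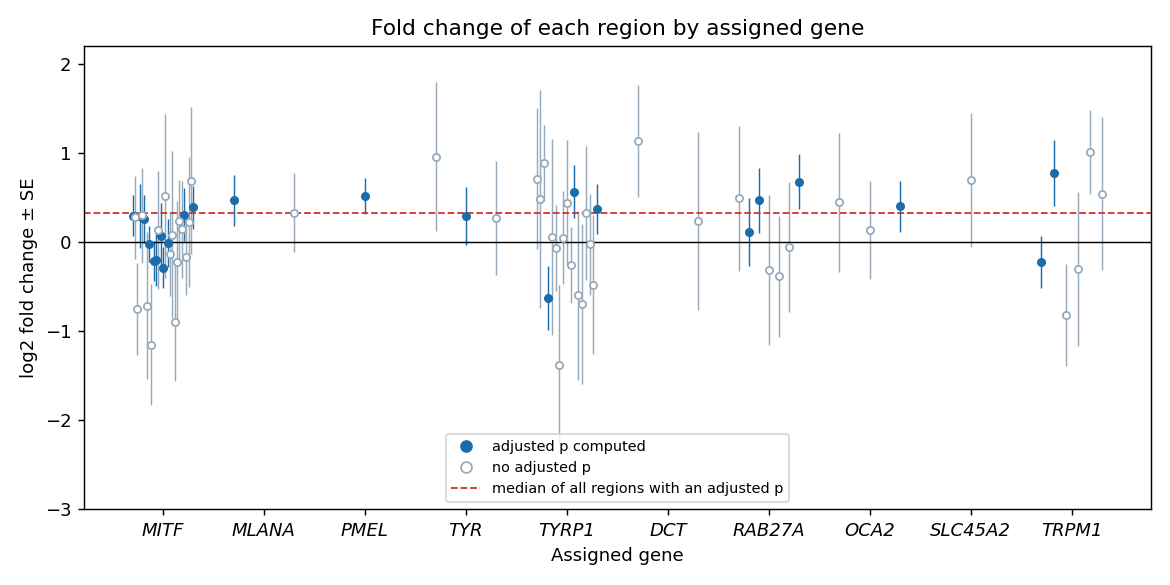
Log2 fold change with its SE for each of the 69 regions by assigned gene, in order of position. Filled points have an adjusted p-value (23 regions), open ones do not (46), and the dashed line is the median of 0.32 of all 36436 such regions.

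The median log2 fold change of the 69 regions was 0.22 in the authors' deposited table, beside 0.28 for all regions. Positive fold changes made up 62.3% of them in the authors' deposited table (95% Wilson interval 50.5 to 72.8%), beside 73.7% of all regions. That second share includes regions at a start, of which 97.7% were positive. Among the 67 member regions away from a start it was 61.2% (49.2 to 72.0%), beside 70.5% of all such regions. MITF and the others pooled differed in this summary, untested: the median was 0.08 for the 27 MITF regions and 0.31 for the other 42 in the authors' deposited table. By gene, however, the median was also low for TYRP1 (0.05), RAB27A (0.11) and TRPM1 (0.16). The remaining genes had medians from 0.29 (TYR) to 0.70 (SLC45A2). At starts, the 2 member regions had 0.26 and 0.52 in the authors' deposited table, beside a median of 0.36 for all 10642 regions at a start. Elsewhere the 67 had a median of 0.14 in the authors' deposited table, beside 0.25. The intervals treat regions as independent and cover no error between libraries.

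Because errors shrink as the level rises, regions were also read against others of like level. With the whole table cut into 20 bins of equal size along the mean level, 10 of the 69 lay below the lowest 5% of their bin in the authors' deposited table and 2 above the highest 5%. The bins held regions at a start, 97.7% of them positive, together with regions elsewhere, 70.5% positive, whereas these 10 all lay elsewhere. Bins of regions elsewhere alone were not made. The 10 were 7 regions of MITF, 2 of TYRP1 and 1 of TRPM1. Of the MITF regions, 4 were among the 6 from the second start to before the third, among them the widest region. That widest region, at -0.02 with an SE of 0.20, lay close to its bin's 5% edge of 0.03. The 2 above lay at DCT and TRPM1 in the authors' deposited table, with 1.13 and 1.01.

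**Figure D5:**
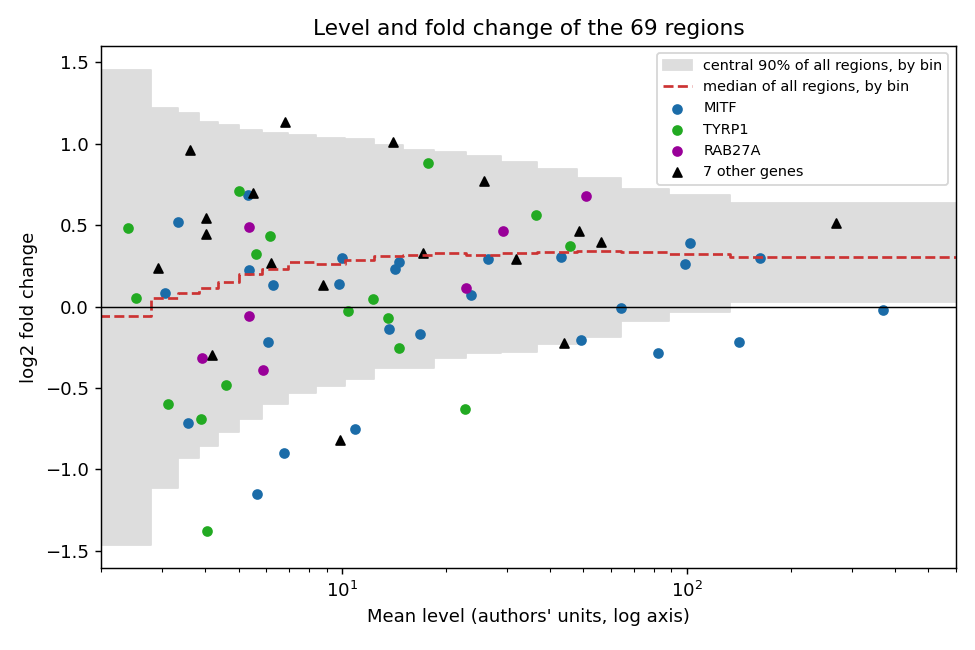
Log2 fold change against mean level (log axis, authors' normalized units) for the 69 regions. The band is the central 90% of all regions, at any distance, in each of 20 bins by level. Below it lie 10 member regions, 7 of them blue MITF points.

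A further 37 genes that act with these were read in the same way: regulators, receptors, melanosome transport and assembly genes, relatives of MITF and its targets. All 37 had regions, 272 in number and 1 of them shared with PMEL, and 24 had a region at their start in the authors' deposited table. Of their 104 regions with an adjusted p-value, 1 passed 0.05 in the authors' deposited table (0.962%, beside 1.67% of all). At an unadjusted p-value under 0.05 there were 27 of 272, all positive in the authors' deposited table (9.93%, beside 8.99%). Their median log2 fold change was 0.25 in the authors' deposited table.

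The 1 region that passed lay beside MLPH, whose product melanophilin links RAB27A to the motor myosin Va. It lay 24302 bases before the MLPH start (chr2:237457856-237462108), at a mean level of 63.4, with 1.12 ± 0.27 (adjusted p-value 0.00915) per the authors' deposited table. With the median of all regions with an adjusted p-value subtracted, it was 0.79 and did not pass, where adjustment of p-values recomputed from the authors' deposited table gave 0.360. All 9 MLPH regions of the authors' deposited table had positive fold changes, and 5 of them had an unadjusted p-value under 0.05. Among all 10642 regions at a start, 2006 had such a p-value (18.8%), all of them positive, per the authors' deposited table. Of the 37 genes, 24 had a start region, and 8 of these regions had such a p-value in the authors' deposited table. Their log2 fold changes ran from 0.46 to 0.90, at AP3B1, BCL2A1, CDK2 (the region shared with PMEL), EDNRB, LEF1, LYST, MLPH and RAB38. Of these, LEF1, a Wnt pathway factor, had 0.65 ± 0.24, and RAB38, which directs enzymes to melanosomes, had 0.73 ± 0.27 in the authors' deposited table. EDNRB, the endothelin receptor of melanoblasts, had 0.60 ± 0.26 at its start in the authors' deposited table. Over all their regions, 7 of 15 were positive for LEF1, 2 of 4 for RAB38 and 14 of 15 for EDNRB in the authors' deposited table. Positive regions were 0 of 4 for KIT, the receptor of stem cell factor, and 3 of 9 for GPNMB, a melanosome glycoprotein, in the authors' deposited table. The strongest start of these genes, that of SOX10, an activator of MITF, had 0.38 ± 0.21 at 41.2 per kb in the authors' deposited table, which also assigns that region to POLR2F.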

How the data were processed

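H3K27ac chromatin immunoprecipitation libraries of A375 cells were grouped by the treatment in the labels, 2 for octanoate and 2 for vehicle. The authors deposited 1 table of their own comparison. Trim Galore, cutadapt, FastQC, Bowtie2, Picard, MACS2, featureCounts, DESeq2 and bedtools 2.29.1 and the build hg38 are named in the submitters' processing notes, without roles or settings. Per the file headers, the mean level is a normalized signal of the authors, the fold change and its standard error are on the log2 scale, and the statistic is a score. The p-value columns were deposited by the authors, and an adjusted p-value of 1 was read as not computed, because Benjamini-Hochberg adjustment over the other 36436 regions gave the deposited values back. Regions of low mean level therefore have no call. Scaling, filters and the numerator are not given in the sources used here, and a difference in scaling between groups would move every region together.

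All lines of the 10 genes were taken. Lines repeating a region were merged for counts over all regions. The start in use was recovered from distance and region ends, and for the 8 genes with both it lay within 423 bases of a RefSeq (GRCh38.p14) start. Width-scaled levels, percentiles, Wilson intervals and motif matches were computed in Python 3.11.15 with pandas 2.3.3 and SciPy 1.17.1. Adjustment and centring were tested on simulated data. For centring, the median fold change of those 36436 regions was subtracted from each value, with p-values from the deposited standard error. Named regions were those at a start and, per gene, the strongest, the most positive and most negative at a mean level of at least 10, and those with an unadjusted p-value under 0.05. Other regions are named by position or as examples, after their values were seen. The members, lists and settings were chosen with earlier results of these data known. TGACGTCA was added after the promoter windows were seen. Columns of single libraries left out numbered 0, and depth is unknown.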

Additional observations from a re-analysis of the deposited data

How the results depend on the processing

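The count of member regions with an adjusted p-value under 0.05 stayed at 0 of the authors' deposited table at thresholds of 0.01 and 0.1, with adjustment over all distinct regions or all lines, after centring and with a level minimum of 10. Of these settings, the threshold of 0.01 could not raise a count of 0. The level minimum removed none of the 23 regions, whose lowest mean level was 22.7. The 5 regions at an unadjusted p-value under 0.05 became 0 at a threshold of 0.01 and 3 among regions with an adjusted p-value. After centring (subtraction of 0.32), 6 of all 69 regions had an unadjusted p-value under 0.05, all negative, and none was among the original 5. They were 4 of MITF, 1 of TYRP1 and 1 of TRPM1, and only 3 of the 6 had an adjusted p-value. MITF regions at mean levels of 10.8 and 5.66 and the TRPM1 region at 9.82 had no adjusted p-value. The median of all regions without one was 0.21, so subtracting 0.32 places most of them below 0. For this count of 6, and for the count of 0 at a threshold of 0.01, the share over all regions was not computed, so neither can be read against the table. The median log2 fold change of 0.22 became 0.35 as the median of the gene medians and 0.31 without MITF, which holds 27 of the 69 regions. Centring turned it to -0.10 and the share of positive regions to 34.8%, turning the sign of 19 of the 69 regions, among them the third MITF start (-0.0198) and the strongest upstream MITF region (-0.0267). Of 19 regions examined singly, centring turned the sign of 3, to -0.0635 at the first MITF start, -0.0298 at the strongest TYR region and -0.211 at a RAB27A region (chr15:55252932-55254204). After centring, 14 of the 23 member regions with an adjusted p-value lay below the median and 3 had an unadjusted p-value under 0.05, all below it, beside 3.13% of all such regions in that direction. The lowest adjusted p-value was then 0.491. No paired analysis was possible because values of single libraries are not in the table, and leaving out each library was not run for that reason.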
